A study of Mus musculus with 8 samples.

Results

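The ETS factors of CD8+ T cells from mouse spleen were followed through loss of 1 of them, Elf4, and through activation in culture. The 10 genes were Elf4, Elf1, Elf2, Ets1, Ets2, Fli1, Gabpa, Etv6, Elk3 and Elk4, and every probe set annotated to 1 of them alone was taken. That gave 28 of the 45101 probe sets on the Affymetrix arrays. Of these, 25 were at or above their array's median intensity on at least 2 of the 8 arrays and entered the tests, with at least 1 probe set for each of the 10 genes. The other 3, the third probe sets of Elf2 and Ets2 and the fourth of Elk3, were dim and were not tested. Probe sets of a gene are numbered from the brightest over all arrays, and no probe set's level was set against another's.

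Groups were Elf4 knockout activated, wild-type activated, Elf4 knockout naive and wild-type naive, with 2 arrays each. Wild-type mice were C57BL/6 and the knockout strain is labelled Elf4-/-, although the treatment label writes Elf-/-. Background strain of the knockout, age and sex of the mice are not in the labels used here. Activated cells had spent 3.5 days on plates coated with anti-CD3, together with anti-CD28, in RPMI with 10% FBS and 5% T-stim, and naive cells were untreated. Nothing in the labels states that the 2 replicates of a group came from separate mice or cultures, so p-values measure only how these samples varied, and that variation may be technical. Both wild-type naive samples cite the same array label, but their values differed.

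ETS factors share a DNA-binding domain of the winged helix-turn-helix type that recognises a GGAA core, so several members can occupy the same site and the makeup of the set in a cell matters. In T cells Ets1 is needed for survival and differentiation, GABP for expression of the interleukin 7 receptor, and the ternary complex factors Elk3 and Elk4 work with serum response factor downstream of mitogen-activated kinases. Elf4, also called MEF, is known to restrain proliferation of CD8+ T cells and to activate the perforin gene.

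ETS genes can carry ETS sites in their own promoters, so the windows that RefSeq places around the start sites of these genes (GRCm38.p6, 250 bases before to 50 after the start) were searched on both strands. The table held 13 windows for 8 of the 10 genes, with none listed for Ets1 and Fli1. The motif CCGGAAGT, read as ACTTCCGG on the other strand, was in 1 of the 13 windows, against 1277 of all 32851 windows or 3.89%. The shorter CGGAAG, read as CTTCCG, lies inside CCGGAAGT and was in 4 of the 13 windows, from Elf2, Gabpa and Elk4, against 16.9% of all windows. Shown first are Elk4, the gene with the largest fall on activation among the brightest probe sets of knockout cells, and Gabpa, which rose, and then Elf4, whose 2 windows held neither motif. Capitals mark the motif matched in each window. The windows are chr1:132007370-132007669 on the plus strand for Elk4, chr16:84834874-84835173 on the plus strand for Gabpa and chrX:48463083-48463382 on the minus strand for Elf4.
Elk4: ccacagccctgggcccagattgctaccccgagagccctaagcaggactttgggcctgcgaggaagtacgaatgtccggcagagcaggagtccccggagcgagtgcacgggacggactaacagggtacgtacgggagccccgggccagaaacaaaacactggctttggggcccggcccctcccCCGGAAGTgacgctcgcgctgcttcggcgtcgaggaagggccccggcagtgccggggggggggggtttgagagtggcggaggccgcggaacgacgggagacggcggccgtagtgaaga
Gabpa: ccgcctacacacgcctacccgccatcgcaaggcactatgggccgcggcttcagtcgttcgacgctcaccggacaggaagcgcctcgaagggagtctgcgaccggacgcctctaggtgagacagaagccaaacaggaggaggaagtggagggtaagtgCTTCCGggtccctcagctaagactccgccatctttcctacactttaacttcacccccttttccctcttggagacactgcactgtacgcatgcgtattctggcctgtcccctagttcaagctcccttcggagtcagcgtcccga
Elf4: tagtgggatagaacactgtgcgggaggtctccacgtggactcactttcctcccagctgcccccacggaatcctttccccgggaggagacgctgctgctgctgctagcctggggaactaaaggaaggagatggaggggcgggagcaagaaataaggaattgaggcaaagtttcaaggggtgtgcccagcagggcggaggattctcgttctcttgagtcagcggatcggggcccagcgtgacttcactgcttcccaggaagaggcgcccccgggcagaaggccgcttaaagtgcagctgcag
A match is a description of the letters in this window and says nothing of binding.

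Intensities, made by the MAS5 method, were on a linear scale with each array scaled to a trimmed mean of 500, and array medians lay between 64.1 and 71.9 in activated cells and between 70.7 and 86.2 in naive cells. All 8 T cell markers with a named probe set, such as Cd8a and Cd3e, were at or above the array median on all arrays. Their summed intensity was 30079 and 32563 in knockout activated, 37927 and 35675 in wild-type activated, 102439 and 93826 in knockout naive and 120495 and 112197 in wild-type naive cells, so it was lower in the knockout without overlap in both states. The 9 granulocyte markers summed to 4736 and 19577 in knockout naive cells and to 445 and 742 in wild-type naive cells. The 6 NK cell markers summed to 6560 and 9755 in knockout naive and 2790 and 4333 in wild-type naive cells, and the 9 macrophage and dendritic cell markers to 3966 and 6360 against 2057 and 2830, so these 3 lists were higher in knockout naive cells without overlap. B cell markers summed to 704 to 810 in activated cells and 4311 to 11351 in naive cells. Activated arrays read 7703 to 10011 for Xist, against 60.3 to 172 on naive arrays, and 2.93 to 44.0 for the Y-linked Eif2s3y, against 2537 to 5146. The 3' to 5' signal ratio of Actb, a measure of RNA quality, was 5.90 to 11.1 in activated cells and 1.96 to 2.50 in naive cells. It read 7.44 and 11.1 in knockout activated and 5.98 and 5.90 in wild-type activated cells. In naive cells it read 1.99 and 1.96 in knockout and 2.13 and 2.50 in wild-type cells. Within each state the ratio did not overlap between genotypes, so ratio and genotype cannot be told apart there. State, this ratio and the sex pattern did not overlap between naive and activated arrays, so they cannot be told apart. In whole-population RNA, fewer cells of a type and less RNA per cell cannot be told apart either.

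Elf4 itself was dim. Its brighter probe set read 76.2 and 80.6 in knockout activated, 83.6 and 134 in wild-type activated, 165 and 192 in knockout naive and 116 and 199 in wild-type naive cells. In naive cells the knockout values lay inside the wild-type range, and in activated cells both knockout values lay under both wild-type values. The difference of log2(intensity + 16), knockout minus wild type, was 0.21 (95% interval -0.65 to 1.07) in naive cells and -0.37 (-1.23 to 0.49) in activated cells. Neither passed in limma, with Benjamini-Hochberg adjusted p = 0.891 and 0.813.

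The second Elf4 probe set was at or above the array median on 2 of 8 arrays. It read 1.92 and 26.1 in knockout activated, 112 and 58.5 in wild-type activated, 77.6 and 58.2 in knockout naive and 32.4 and 9.37 in wild-type naive cells. Knockout values were thus under the wild-type ones in activated cells and over them in naive cells, with no overlap in either state. The differences were -1.83 and 1.25 in log2 units, with limma adjusted p = 0.373 and 0.522. The genotype effect in activated cells minus that in naive cells was -3.08 (95% interval -5.23 to -0.93), with an unadjusted p of 0.0093 and an adjusted p of 0.311. The place of these probe sets relative to the deletion was not analysed here, so they do not check the genotype labels. The genes whose brightest probe set followed the brighter Elf4 probe set most closely over the 8 arrays were Obox6, Tdrd7 and Tmem86b, with Pearson r of 0.982, 0.971 and 0.969 among 12804 genes searched. Obox6 read from 13.7 to 140 and Tmem86b from 1.18 to 125, so both were dim, as Elf4 was. All 8 arrays shared the split into activated and naive cells, and this likeness is a description.

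No ETS gene passed the test for a genotype effect. Of the 25 probe sets, 0 passed in naive cells in limma at an adjusted p of 0.05, where 0.563% of all 27348 tested probe sets did (0.314% higher, 0.249% lower), and 0 passed in activated cells, where 0.216% did (0.113% higher, 0.102% lower). At an unadjusted p under 0.05 in limma there were 3 of the 25 in naive and 3 in activated cells. Of all 27348 tested probe sets, 3310 and 2878 were under it. In naive cells 1 probe set was higher and 6 were lower in the knockout with no overlap of array values. Of all probe sets 38.2% did not overlap, 18.4% higher and 19.8% lower. In activated cells 5 were higher and 8 lower without overlap, against 47% of all, 22.5% higher and 24.5% lower. The median difference over the 25 was -0.09 in naive and -0.05 in activated cells, beside -0.004 and -0.02 over all tested probe sets.

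Elf2, also called NERF, a close relative of Elf4 with activating and repressing isoforms, had the smallest genotype p of the 10 genes. Its brightest probe set read 666 and 772 in knockout naive cells, against 1925 and 1056 in wild-type naive cells. The second read 665 and 228 in knockout naive cells, against 726 and 995 in wild-type naive cells. On both, each knockout value was lower than each wild-type value. The differences were -0.98 (SE 0.29, 95% interval -1.61 to -0.34) and -1.09 (SE 0.41, interval -2.00 to -0.18) in log2 units. Neither passed, with limma adjusted p = 0.204 and 0.323. Neither passed under any setting that kept all arrays. The brightest differed by -1.40 without wild-type naive replicate 2, and the second by -1.83 without knockout naive replicate 1. In each case the array left out held the value nearest the other genotype, so the difference grew. The -1.83 rests on knockout naive replicate 2 alone in its group, the array with the granulocyte marker sum of 19577. In activated cells the same probe sets differed by -0.35 and -0.41 in log2 units, with adjusted p = 0.744 and 0.804.

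The second probe set of Etv6, a transcriptional repressor also called TEL, was the third with an unadjusted p under 0.05 in naive cells. It read 17.2 and 118 in knockout naive cells, against 179 and 162 in wild-type naive cells. The difference was -1.48 in log2 units (limma adjusted p = 0.329), while the brightest Etv6 probe set differed by 0.01 in the same cells.

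In activated cells the brightest Etv6 probe set was 0.49 log2 units higher in the knockout (interval 0.06 to 0.91, limma adjusted p = 0.401). It read 1909 and 1789 in knockout activated cells and 1496 and 1153 in wild-type activated cells, with no overlap. The brightest Ets1 probe set read 5664 and 4666 in knockout activated cells, against 3930 and 3828 in wild-type activated cells. It differed by 0.41 log2 units (interval -0.05 to 0.86, adjusted p = 0.534). The second Ets1 probe set also differed by 0.41, but the third differed by -0.05 and the fourth by -0.27. On the fourth both knockout values were under both wild-type values, so the Ets1 probe sets disagreed. The brightest Fli1 probe set read 1105 and 987 in knockout activated cells and 1394 and 1642 in wild-type activated cells, a difference of -0.53 (interval -1.10 to 0.04, adjusted p = 0.512). The second Fli1 probe set differed by -0.19 and the second Etv6 probe set by 0.42. On the 3 brightest probe sets the groups did not overlap, and none of the 3 differences passed in limma.

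For the brightest probe sets the 95% intervals of the knockout effect reached at most from -1.61 (Elf2) to 1.07 (Elf4) log2 units in naive cells and from -1.23 (Elf4) to 0.91 (Etv6) in activated cells with 2 arrays a group. Over all tested probe sets, the smallest difference that passed in limma was 0.51 in naive and 0.66 in activated cells. Wild-type naive replicate 1 read above replicate 2 for 6 of the 10 brightest probe sets, and for 5 of the 10 the wild-type naive values enclosed both knockout naive values. For the difference in genotype effect, activated minus naive, 0 of the 25 probe sets passed in limma, where 0.0585% of all did (0.0183% higher, 0.0402% lower). Unadjusted limma p was under 0.05 for 2 of the 25 and for 2663 of all 27348.

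**Figure D1:**
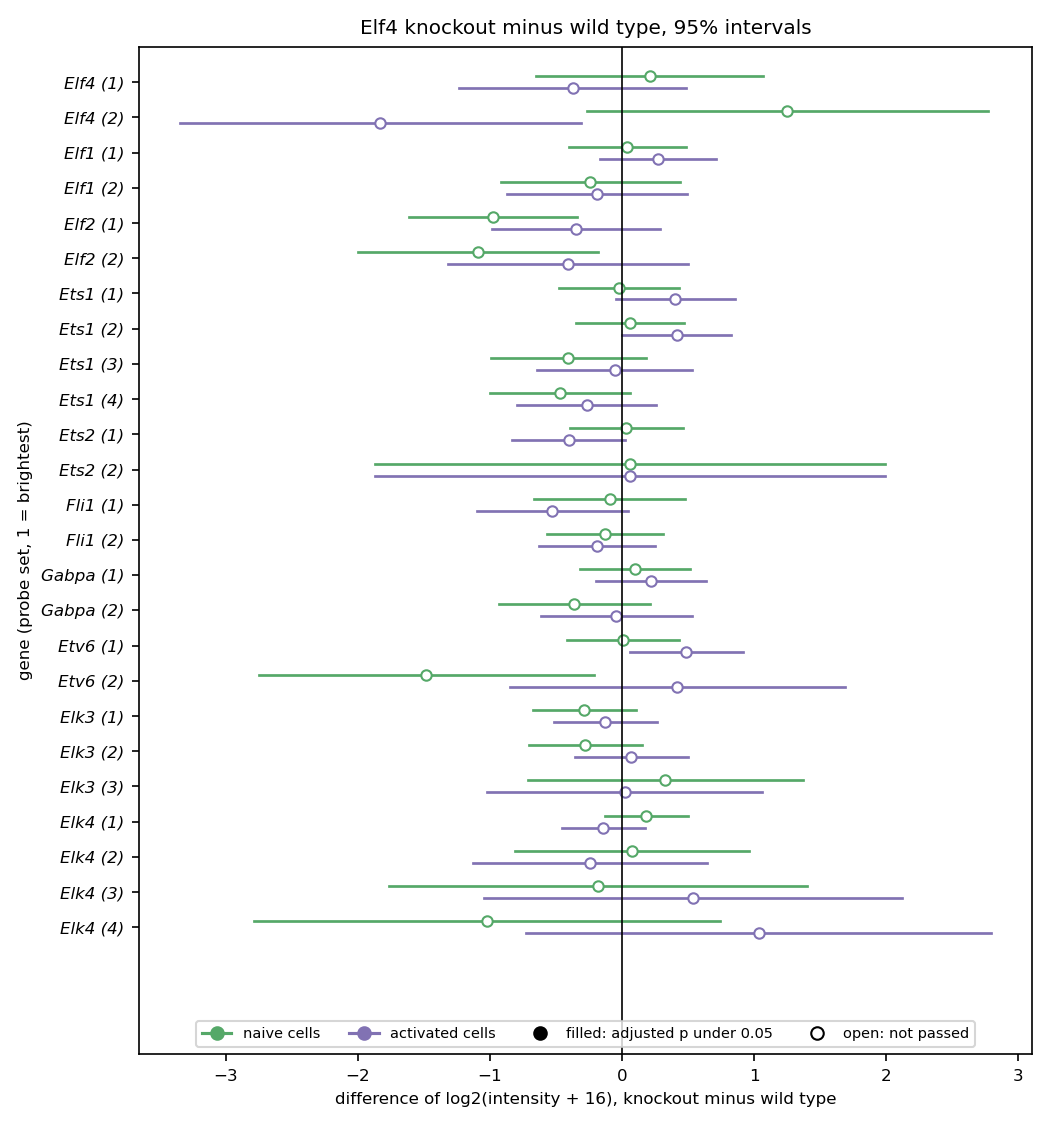
Knockout minus wild-type difference of log2(intensity + 16) for the 25 tested probe sets of the 10 ETS genes, in naive (green) and activated (purple) cells. Points are estimates, lines are 95% intervals from limma, and every point is open because none of the 25 passed at an adjusted p of 0.05. Elf2 lies left of 0 on both probe sets in naive cells, at -0.98 and -1.09.

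Most of the ETS genes differed between activated and naive cells. In knockout cells 16 of the 25 probe sets passed, 4 higher and 12 lower in activated cells, where 41.7% of all tested probe sets passed, 18.2% higher and 23.5% lower. In wild-type cells 14 passed, 2 higher and 12 lower, where 39.2% of all passed, 17.4% higher and 21.8% lower. The share that passed was 64% in knockout and 56% in wild-type cells. Array values of the 2 states did not overlap for 4 higher and 17 lower probe sets in knockout cells, against 71.5% of all, 30.7% higher and 40.7% lower. In wild-type cells this held for 4 higher and 15 lower, against 68.7% of all, 29.4% higher and 39.3% lower. By the brightest probe set of each gene, Gabpa and Etv6 rose and Elf1, Elf2, Ets1, Ets2 and Elk4 fell in both genotypes, while Elf4, Fli1 and Elk3 did not pass. The 2 comparisons contrast different arrays but share 1 estimate of the spread from all 8, so they are not independent. Both also share the sex and RNA quality pattern given above. The same way in both, 13 probe sets passed, which is 13 of the 16 called in knockout and of the 14 called in wild-type cells. The share over all probe sets was not counted, so the 13 have no background beside them and are a description. The median difference over the 25 was -0.84 in knockout and -0.90 in wild-type cells, beside -0.16 and -0.15 over all tested probe sets.

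**Figure D2:**
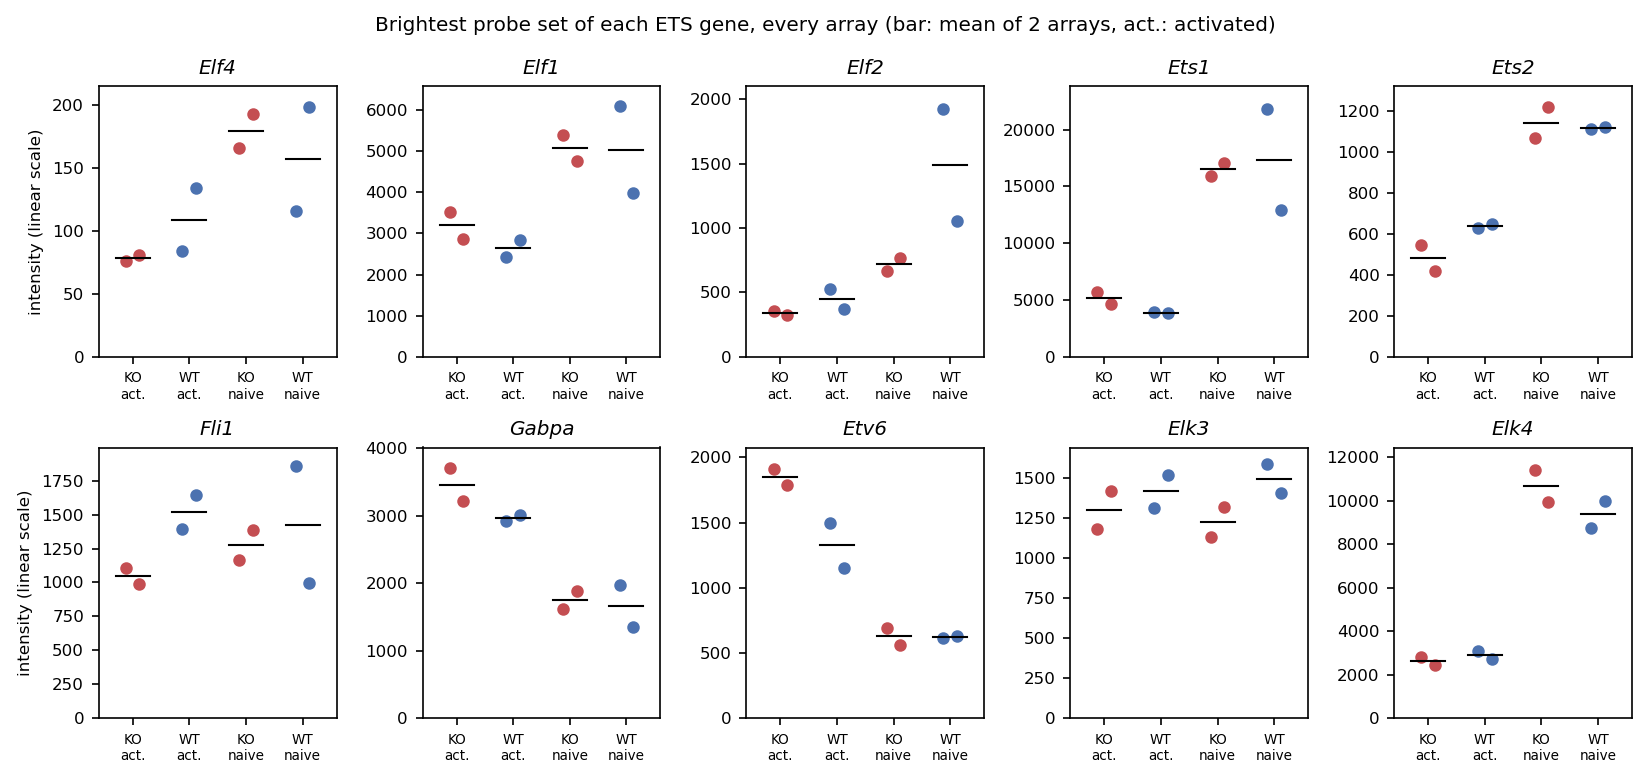
Intensity of the brightest probe set of each ETS gene on every array, on a linear axis that starts at 0, for knockout activated, wild-type activated, knockout naive and wild-type naive cells, with bars at the mean of 2 arrays. Ets1 and Elk4 are lower and Gabpa and Etv6 higher on all 4 activated arrays than on any naive array, and Elk3 overlaps.

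Ets1, the ETS factor with the best known role in T cells, fell on all 4 of its probe sets in both genotypes. The brightest read 5664 and 4666 in knockout activated, 3930 and 3828 in wild-type activated, 15938 and 17109 in knockout naive and 21812 and 12929 in wild-type naive cells. No activated value reached a naive one. The differences were -1.68 (SE 0.21, limma adjusted p = 7.0e-05) in knockout and -2.11 (SE 0.21, limma adjusted p = 1.52e-05) in wild-type cells. Over the other 3 probe sets they ran from -0.74 to -1.74 in knockout and from -1.10 to -2.09 in wild-type cells. The call of the second Ets1 probe set, whose identifier marks it as one that may cross-hybridise, in knockout cells was lost without knockout activated replicate 2 (-0.53, limma adjusted p = 0.0904) and without knockout naive replicate 2 (-0.65, limma adjusted p = 0.0523). Fli1, which neighbours Ets1 on the chromosome with 0 protein-coding genes between them, is best known from blood stem cells and megakaryocytes. Its brightest probe set read 1105 and 987 in knockout activated, 1394 and 1642 in wild-type activated, 1168 and 1388 in knockout naive and 1856 and 995 in wild-type naive cells. These values overlapped between states only in wild-type cells, and the differences, -0.28 and 0.15 in knockout and wild-type cells, did not pass. The second Fli1 probe set did pass, at -1.31 and -1.25, with 377 and 385 in knockout activated, 424 and 447 in wild-type activated, 1015 and 921 in knockout naive and 1188 and 941 in wild-type naive cells. The Fli1 probe sets therefore disagreed. Without wild-type naive replicate 1 the brightest gave 0.60 in wild-type cells (limma adjusted p = 0.0451). The genes most like the brightest Ets1 probe set over the 8 arrays were Zfp518a, Zfand6 and Ccpg1, with Pearson r of 0.996, 0.993 and 0.993, as a description.

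Ets2, a factor that works with AP-1 and is induced by growth signals in many cells, fell on its brightest probe set. It read 545 and 422 in knockout activated, 629 and 650 in wild-type activated, 1069 and 1221 in knockout naive and 1112 and 1121 in wild-type naive cells. The states did not overlap, with differences of -1.23 (SE 0.19, limma adjusted p = 0.000424) in knockout and -0.79 (SE 0.19, limma adjusted p = 0.00748) in wild-type cells. The wild-type call was lost without wild-type activated replicate 1 (-0.77, limma adjusted p = 0.0518) and when each array was centred on its median (-0.60, limma adjusted p = 0.0654). The second Ets2 probe set, at or above the array median on 4 of 8 arrays, read from 24.8 to 234 with no order by group and did not pass.

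Elf1, the factor closest to Elf4 in sequence and highly expressed in lymphocytes, read 3516 and 2866 in knockout activated, 2428 and 2838 in wild-type activated, 5381 and 4756 in knockout naive and 6084 and 3975 in wild-type naive cells on its brightest probe set. Every activated value was lower than every naive value. It fell by 0.67 in knockout cells (limma adjusted p = 0.0199) and by 0.90 in wild-type cells (limma adjusted p = 0.00428), and the second Elf1 probe set fell by 1.42 and 1.46. The knockout call of the brightest was lost without knockout activated replicate 2 (-0.52, limma adjusted p = 0.151), without knockout naive replicate 1 (-0.58, limma adjusted p = 0.0997) and with median centring (-0.55, limma adjusted p = 0.0802). Elf2 read 358 and 327 in knockout activated and 526 and 369 in wild-type activated cells, under the naive values given above. It fell by 1.03 in knockout (limma adjusted p = 0.0139) and by 1.66 in wild-type cells (limma adjusted p = 0.000881). The knockout call was lost without knockout activated replicate 1 or 2 or knockout naive replicate 2, with limma adjusted p = 0.0521, 0.0803 and 0.0733. The second Elf2 probe set differed by -0.16 and -0.84 in knockout and wild-type cells and did not pass. It passed in wild-type cells without knockout naive replicate 1 or 2, with limma adjusted p = 0.0305 and 0.0274. Elf4 missed the threshold, at -1.04 in knockout (limma adjusted p = 0.0521) and -0.46 in wild-type cells (limma adjusted p = 0.387). In knockout cells its 2 activated values were under both naive values, and it passed under 8 of 21 alternative settings, with adjusted p from 0.0369 to 0.788. Among these were leaving out wild-type naive replicate 1 or 2, with limma adjusted p = 0.0369 and 0.0413.

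Gabpa, the DNA-binding subunit of GABP, a factor that drives genes of mitochondrial respiration in many tissues, rose. Its brightest probe set read 3700 and 3221 in knockout activated, 2923 and 3010 in wild-type activated, 1617 and 1883 in knockout naive and 1971 and 1351 in wild-type naive cells. All activated values were above all naive values. The differences were 0.98 (SE 0.19, limma adjusted p = 0.00165) in knockout and 0.86 (SE 0.19, limma adjusted p = 0.00405) in wild-type cells. The second Gabpa probe set differed by 0.92 (limma adjusted p = 0.0154) and 0.60 (limma adjusted p = 0.0938). Its knockout call was lost without knockout activated replicate 1 or 2 or knockout naive replicate 2, with limma adjusted p = 0.0626, 0.0877 and 0.0878, and it passed in wild-type cells without wild-type naive replicate 1 (0.94, limma adjusted p = 0.0155).

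GABP also needs a beta subunit that carries the activating domain. The brightest probe set of Gabpb1, a beta subunit, read 818 and 833 in knockout activated, 828 and 955 in wild-type activated, 204 and 349 in knockout naive and 88.8 and 265 in wild-type naive cells. It rose by 1.57 in knockout (limma adjusted p = 0.0095) and by 2.40 in wild-type cells (limma adjusted p = 0.000768). Gabpb2, the other beta subunit, fell on its brightest probe set by 1.05 in knockout (limma adjusted p = 0.000128) and by 0.53 in wild-type cells (limma adjusted p = 0.0115). The knockout call of Gabpb1 was lost without knockout activated replicate 1 or 2 or knockout naive replicate 1, with limma adjusted p from 0.0508 to 0.0783. The wild-type call of Gabpb2 was lost without wild-type activated replicate 1 (-0.45, limma adjusted p = 0.0997) and with median centring (-0.34, limma adjusted p = 0.151). Among 9 genes of mitochondrial function known as GABP targets, 5 rose in knockout and 4 in wild-type cells by their brightest probe sets, and 0 fell. The share over all genes was not counted. With quantile normalization the knockout calls of Atp5b (0.24, limma adjusted p = 0.157) and Cox5b (0.12, limma adjusted p = 0.347) were lost. Without a trend in eBayes the wild-type calls of Nrf1 and Atp5b were lost (limma adjusted p = 0.0889 and 0.104). By probe set, 7 of 19 rose and 1 fell in knockout and 5 rose and 2 fell in wild-type cells, with a median difference of 0.19 and 0.11. The share higher was 36.8% and 26.3%, beside 18.2% and 17.4% of all, a description of a list chosen with earlier results known. Cox17, a copper chaperone for cytochrome oxidase read by a probe set that may cross-hybridise, rose by 2.30 (limma adjusted p = 2.84e-07) in knockout and by 1.92 (limma adjusted p = 1.02e-06) in wild-type cells. Tfb2m, a mitochondrial transcription factor, rose by 1.20 and 0.87. Probe sets of Cox5b, a cytochrome oxidase subunit, disagreed in wild-type cells, where the second rose by 0.36 (limma adjusted p = 0.0471) and the third fell by 0.77. The call of the second was lost without any 1 of the 4 wild-type arrays, with limma adjusted p from 0.0809 to 0.172.

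Etv6 read 1909 and 1789 in knockout activated, 1496 and 1153 in wild-type activated, 694 and 563 in knockout naive and 612 and 632 in wild-type naive cells on its brightest probe set. Every activated value was above every naive value. It rose by 1.54 (SE 0.19, limma adjusted p = 8.5e-05) in knockout and by 1.06 (SE 0.19, limma adjusted p = 0.00124) in wild-type cells. The second Etv6 probe set differed by 1.69 (limma adjusted p = 0.0358) in knockout cells and by -0.21 (limma adjusted p = 0.801) in wild-type cells. That knockout call was lost without knockout activated replicate 1 or 2 or knockout naive replicate 1, with limma adjusted p = 0.146, 0.105 and 0.273, and the difference was 0.68 without the last of these arrays. Erf, another ETS repressor, rose by 0.98 (limma adjusted p = 0.0203) and 0.93 (limma adjusted p = 0.0279) in knockout and wild-type cells. Its call was lost without knockout activated replicate 1 or 2 or knockout naive replicate 1 in knockout cells, with limma adjusted p from 0.0631 to 0.126. In wild-type cells it was lost without any 1 of the 4 wild-type arrays, with limma adjusted p from 0.0544 to 0.167.

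Elk4, also called SAP-1, and Elk3, also called Net, bind DNA with serum response factor, and Elk3 can repress. The brightest Elk4 probe set read 2813 and 2458 in knockout activated, 3085 and 2727 in wild-type activated, 11412 and 9937 in knockout naive and 8759 and 10012 in wild-type naive cells. Each naive value was above each activated one. It fell by 2.01 (SE 0.14, limma adjusted p = 1.36e-06) in knockout and by 1.69 (SE 0.14, limma adjusted p = 5.14e-06) in wild-type cells. The other Elk4 probe sets were dimmer and 2 of them passed in 1 genotype each. The second differed by -1.31 in knockout and -1.001 in wild-type cells, and the third by -1.42 in knockout and -2.14 in wild-type cells. The second passed in knockout cells, and this was lost without knockout activated replicate 1 or 2 or knockout naive replicate 1, with limma adjusted p from 0.0634 to 0.137. It passed in wild-type cells without wild-type naive replicate 1 (-1.73, limma adjusted p = 0.00129). The third passed in wild-type cells (limma adjusted p = 0.0354), and this was lost without wild-type activated replicate 1 or 2 or wild-type naive replicate 2, with limma adjusted p from 0.0556 to 0.265 and a difference of -1.25 without the last of these.

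The brightest Elk3 probe set read 1181 and 1418 in knockout activated, 1315 and 1522 in wild-type activated, 1132 and 1319 in knockout naive and 1589 and 1405 in wild-type naive cells. The states overlapped in both genotypes, with differences of 0.08 (adjusted p = 0.748 in limma) and -0.08 (adjusted p = 0.764 in limma). The second Elk3 probe set fell by 0.62 (limma adjusted p = 0.0238) in knockout and by 0.97 (limma adjusted p = 0.00222) in wild-type cells, so the probe sets disagreed. Its knockout call was lost without any 1 of the 4 knockout arrays, with limma adjusted p from 0.0611 to 0.115, and with median centring at 0.117. Srf, the partner of both factors, fell on its brightest probe set by 0.85 (limma adjusted p = 0.00258) in knockout and by 1.18 (limma adjusted p = 0.000311) in wild-type cells, and its second probe set did not pass. Mrtfa, the actin-sensing coactivator of the same partner, fell by 2.39 and 1.59.

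**Figure D3:**
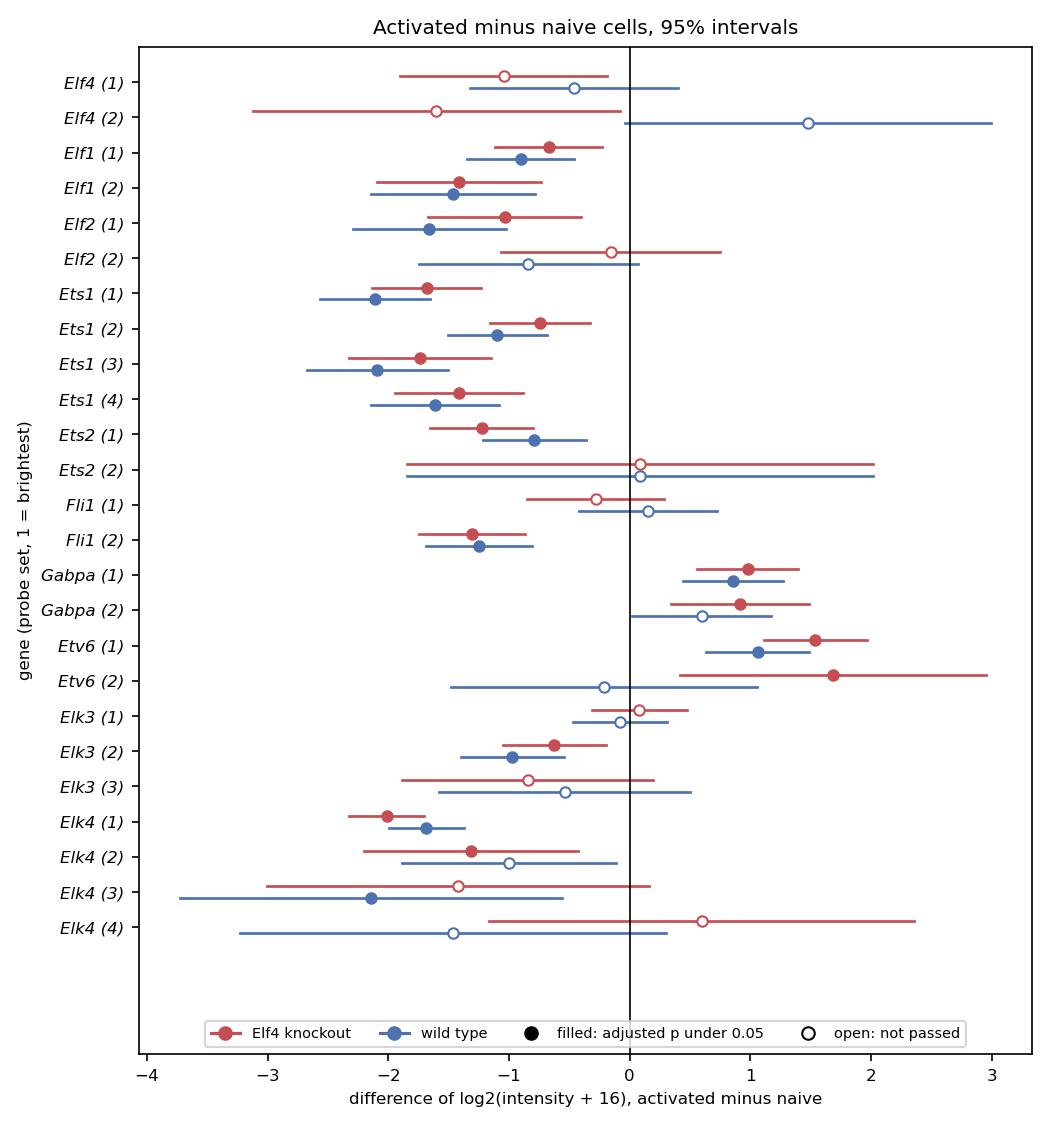
Activated minus naive difference of log2(intensity + 16) for the 25 tested probe sets of the 10 ETS genes, in Elf4 knockout (red) and wild-type (blue) cells. Points are estimates, lines are 95% intervals from limma, and filled points passed at an adjusted p of 0.05, 16 in knockout and 14 in wild-type cells. Gabpa and the brightest Etv6 probe set lie right of 0, and all 4 Ets1 probe sets and the brightest Elk4 probe set lie left of it.

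**Figure D4:**
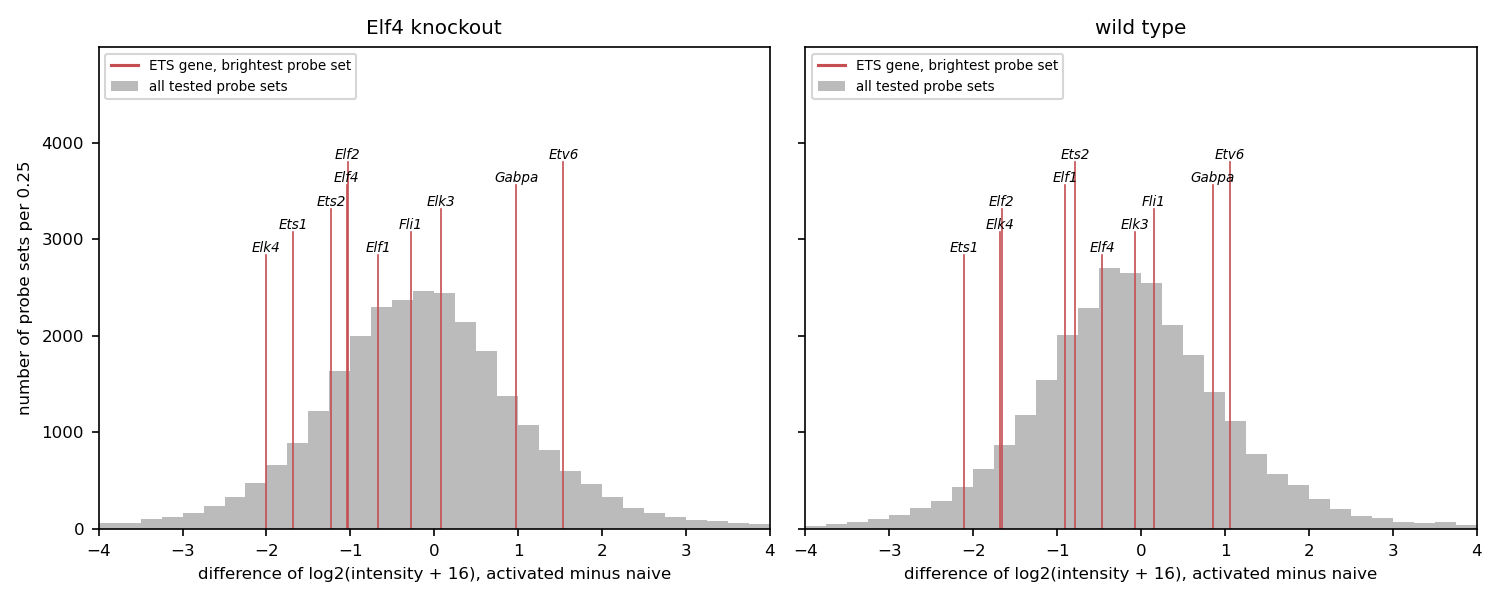
Activated minus naive difference of the brightest probe set of each ETS gene (red lines) over the histogram of all 27348 tested probe sets (grey, bins of 0.25 log2 units), in knockout and wild-type cells, with values beyond the axis limits left out. The median of all was -0.16 in knockout and -0.15 in wild-type cells. Ets1 stands at -1.68 and -2.11, Elk4 at -2.01 and -1.69 and Etv6 at 1.54 and 1.06.

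The activation calls went with the state itself and with everything the arrays of a state share. With the Actb 3' to 5' ratio as a covariate, an alternative added after the data were seen, 0 of the 25 probe sets passed in limma in either genotype. Of all tested probe sets 0 passed in that fit in knockout and 484 in wild-type cells. The ratio did not overlap between states, so that fit cannot separate ratio from state. Unadjusted p was under 0.05 there for 2 of the 25 in knockout and 4 in wild-type cells, beside 2622 and 4423 of all. In knockout cells the count of members was 11 without activated replicate 1, 9 without activated replicate 2 and 12 without either naive replicate, in place of 16. The count over all tested probe sets in the same fits was 8650, 8458, 9300 and 9622, in place of 11395. With each array centred on its median, all tested probe sets had a median of -0.04 in knockout and 0.03 in wild-type cells. It left 14 calls, 4 higher and 10 lower, in knockout and 13 calls, 2 higher and 11 lower, in wild-type cells. Of all tested probe sets 10619 in knockout and 9880 in wild-type cells passed with this centring.

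Beyond the 10 genes, 14 of 16 other ETS genes had a named probe set and 9 of these were tested. None of their 14 probe sets passed for genotype in naive or activated cells in limma. Unadjusted p was under 0.05 for 0 of them in either, beside 3310 and 2878 of all 27348. Between activated and naive cells 5 of the 14 passed in each genotype, 1 higher and 4 lower in activated cells. That is 35.7%, under the shares of all probe sets given above. Their median difference was -0.22 in knockout and -0.40 in wild-type cells. Etv3, a repressor, fell on its brightest probe set by 1.32 in knockout and by 1.20 in wild-type cells. Spib, a factor of B cells and plasmacytoid dendritic cells, read 102 and 47.1 in knockout activated, 34.4 and 81.6 in wild-type activated, 304 and 982 in knockout naive and 284 and 191 in wild-type naive cells. It fell by 2.71 (limma adjusted p = 0.0025) and 1.83 (limma adjusted p = 0.023) in knockout and wild-type cells. The wild-type call of Spib was lost without wild-type activated replicate 1 or wild-type naive replicate 1, with limma adjusted p = 0.169 and 0.108. Over the 9 B cell markers, the summed intensity was 713 and 810 in knockout activated, 742 and 704 in wild-type activated, 4311 and 11351 in knockout naive and 5313 and 4346 in wild-type naive cells, and its part in the Spib values was not tested. Spi1, the PU.1 factor of myeloid and B cells, read 93.7 to 117 in knockout activated, 80.6 to 119 in wild-type activated, 164 to 274 in knockout naive and 93.7 to 179 in wild-type naive cells and did not pass.

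Partners of ETS factors had 14 of 15 genes measured, and none of their 42 tested probe sets passed for genotype in limma. Unadjusted p was under 0.05 for 1 in naive and 5 in activated cells, beside 3310 and 2878 of all 27348. On activation 3 rose and 15 fell in knockout, and 4 rose and 12 fell in wild-type cells, which is 42.9% and 38.1% and close to the shares of all probe sets. Their median difference was -0.50 and -0.29. The brightest probe set of Runx1, which binds DNA together with Ets1, read 58.6 and 10.2 in knockout activated, 74.3 and 6.42 in wild-type activated, 938 and 765 in knockout naive and 934 and 808 in wild-type naive cells. It fell by 4.29 and 4.30 (limma adjusted p = 0.000226 and 0.000248), and 3 of its 6 probe sets passed in each genotype. Nfatc1, an activation-induced factor that can share composite sites with ETS factors, fell by 2.02 and 1.90 on its brightest probe set, while the third probe set of Nfatc1 rose by 1.14 and 1.07. The coactivator Crebbp fell by 1.93 and 1.55.

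Genes known as targets of ETS factors in T cells had 1 genotype call in each state among 15 tested probe sets. That is 6.67%, where 0.563% of all probe sets passed in naive and 0.216% in activated cells. The list was chosen with earlier results of these data known, so these shares are a description and no test of enrichment. Both calls were lower in the knockout. Klf4, a target of Elf4 that restrains the cell cycle, read 535 and 302 in knockout naive cells and 1861 and 2894 in wild-type naive cells and was lower in the knockout (-2.48, SE 0.31, limma adjusted p = 0.0119). This call was lost without knockout naive replicate 2 (-2.08, limma adjusted p = 0.0635). In activated cells Klf4 differed by -0.04. Klf2, which holds T cells in quiescence and controls their homing, read 109 and 119 in knockout activated cells and 242 and 284 in wild-type activated cells, a fall of 1.10 (limma adjusted p = 0.0464). Without any 1 of these 4 arrays that call was lost, with limma adjusted p from 0.267 to 0.324. Il7r, the interleukin 7 receptor chain and a GABP target, read 7057 and 7350 in knockout activated, 5395 and 6063 in wild-type activated, 24217 and 24699 in knockout naive and 22248 and 21964 in wild-type naive cells. It fell by 1.76 in knockout and by 1.95 in wild-type cells on activation, while Gabpa itself rose.

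Targets of ETS factors differed in both directions between activated and naive cells. In knockout cells 6 of the 15 probe sets rose and 5 fell, and in wild-type cells 5 rose and 4 fell. That is 73.3% and 60%, above the 41.7% and 39.2% of all probe sets, again only a description of this list. Their median difference was 0.33 in knockout and 0.31 in wild-type cells. Il2ra, the alpha chain of the interleukin 2 receptor, read 12604 and 11918 in knockout activated, 13070 and 12249 in wild-type activated, 55.6 and 50.9 in knockout naive and 34.1 and 45.2 in wild-type naive cells, a rise of 7.47 and 7.84. Csf2, which encodes the cytokine GM-CSF, read 2869 and 3486 in knockout activated, 1827 and 2430 in wild-type activated, 14.1 and 45.3 in knockout naive and 23.5 and 19.4 in wild-type naive cells, a rise of 6.21 and 5.83. All naive values of both genes were under the array median. Klf2 fell by 6.88 in knockout and by 5.67 in wild-type cells. In the fit that includes the Actb ratio, the wild-type calls of Il2ra, Il7r and Klf2 remained. That of Csf2 was lost (limma adjusted p = 0.0524). In knockout cells all 4 were lost, as was every call over all tested probe sets. The knockout differences in that fit were 7.34 for Il2ra, -7.47 for Klf2, 5.65 for Csf2 and -1.91 for Il7r. The ratio did not overlap between states, so this fit cannot separate ratio from state.

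Targets of serum response factor and the ternary complex factors gave 4 genotype calls in naive cells among 19 tested probe sets of 11 genes. All 4 were lower in the knockout, which is 21.1%, where 0.249% of all probe sets passed in that direction. This list too was chosen with earlier results of these data known, so the shares are a description and no test of enrichment. The median over the 19 was -0.21. Brightest probe sets of Elk3 and Elk4 did not pass in the same comparison, at -0.29 and 0.19, nor did Srf, at -0.24. Fos, an AP-1 subunit and immediate early gene, read 13860 and 10744 in knockout naive and 24169 and 29039 in wild-type naive cells, a difference of -1.12 (SE 0.16, limma adjusted p = 0.0171). Ier2, another immediate early gene, differed by -0.99 (limma adjusted p = 0.026), Junb, an AP-1 subunit, by -1.62 (limma adjusted p = 0.0301) and Nr4a1, an orphan nuclear receptor induced by the T cell receptor, by -1.75 (limma adjusted p = 0.0493). For each of the 4 genes, both knockout values were under both wild-type values.

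All 4 calls depended on single arrays. Without knockout naive replicate 2, whose granulocyte marker sum was the highest at 19577, limma adjusted p was 0.0926 for Fos, 0.142 for Ier2, 0.151 for Junb and 0.253 for Nr4a1, with differences of -0.93, -0.85, -1.24 and -1.49. Leaving out any 1 of the 4 activated arrays, which leaves the differences as they are, also ended the 4 calls, with limma adjusted p from 0.0526 to 0.134. Without wild-type naive replicate 2 the calls of Ier2 (-0.83, limma adjusted p = 0.0735), Junb (-1.33, limma adjusted p = 0.0867) and Nr4a1 (-1.15, limma adjusted p = 0.0753) were lost, and without knockout naive replicate 1 that of Nr4a1 (-2.02, limma adjusted p = 0.0539). In activated cells none of the 19 probe sets passed for genotype in limma, and 3 had an unadjusted p under 0.05, beside 2878 of all 27348. The part of the granulocyte, NK cell, macrophage and dendritic cell and T cell marker sums in these values and in those of Klf4 was not tested.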

How the data were processed

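RNA from 8 samples of mouse CD8+ T cells was hybridised to Affymetrix arrays, 2 per group, and group and replicate number came from the sample titles. The authors deposited 1 linear intensity per probe set and array, which MAS5 made per the submitters' processing notes. No version of MAS5 is given in the sources used here. Gene symbols came from the platform annotation, in which 34958 of 45101 probe sets had 1 symbol, updated through Entrez identifiers for 34754. There were 64 manufacturer's control probe sets. Members and gene lists were chosen with earlier results of these data known.

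In R 4.3.3 with limma 3.58.1, log2(intensity + 16) was fitted with 4 group means over all 8 arrays (lmFit, eBayes with a trend, 4 residual and 6.67 prior degrees of freedom). Differences on this scale understate the change of dim probe sets. A probe set was tested, two-sided, if 2 or more of the 8 arrays gave it the array median or more, which 27348 did. Adjustment was by Benjamini-Hochberg over all of them within a comparison, with a threshold of 0.05. The model was tested on simulated data with independent noise, real differences removed and known differences added to the knockout naive group alone. That setting does not cover states that share sex and RNA quality, mixed cells or technical replicates. Depth does not apply to arrays, and 2 arrays per group limit the precision.

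The rule for names took every probe set of the 10 genes. From the other lists it took genes past the threshold for genotype, up to 4 genes per list with the smallest p for activation, and Spi1, Spib, Klf2 and Klf4. It also took the 3 genes outside the family with the highest Pearson r to Elf4 and to the gene with the largest activation difference in wild-type cells. Gabpb1, Srf and further probe sets of Cox5b and Nfatc1 lie outside the rule and were chosen after their values were seen.

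Replicate numbers were not taken as pairs: deviations of same-numbered arrays correlated between -0.17 and 0.07. Alternatives were other offsets, scalings, filters and eBayes settings, array weights, a replicate block, leaving out possibly cross-hybridising probe sets, the 4 arrays of a comparison alone, and each array left out in turn, where the lone array of a group was taken to vary as the other groups do. The Actb ratio covariate and a crossed block were added after the data were seen.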

Additional observations from a re-analysis of the deposited data

How the results depend on the processing

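The count of ETS probe sets past the threshold for genotype was 0 in naive cells and became 1 without knockout naive replicate 1 and 1 without wild-type naive replicate 2, so from 0 to 1 when arrays were left out. In activated cells and for the difference between states it was 0 throughout. For activation it was 16 in knockout cells, from 9 to 17 when arrays were left out, and 14 in wild-type cells, from 12 to 17. With the replicate number as a block the counts were 0, 0, 17, 14 and 0, and the block also took the brightest Elf4 probe set past the threshold for activation in knockout cells (limma adjusted p = 0.0478). A crossed block on the naive arrays gave 0 of the ETS probe sets and 52 of all. With the Actb 3' to 5' ratio in the model the activation counts were 0 and 0, and called values changed sign, though none passed then. In knockout cells these were the brightest probe sets of Elf1 (1.11), Elf2 (0.48), Ets1 (0.24), Cox5b (-0.59), Etv3 (0.91), Spib (1.29), Gabpb1 (-0.27) and Runx1 (0.74) and the second of Ets1 (1.34) and Cox5b (-0.037). In wild-type cells they were Elf1 (0.20), the second of Ets1 (0.19), Etv3 (0.18), Spib (0.65) and the second of Cox5b (-0.28). The ratio does not overlap between states, and the cause was not tested. Calls for genotype were lost in 4 of 22 alternatives for Klf4, 8 for Fos, 10 for Ier2, 10 for Junb and 17 for Nr4a1, and in 12 of 21 for Klf2. Over the single probe sets, of 4102 alternative values 218 lost a call, among them the 15 above whose sign changed, and 17 gained one. Signs also changed in 113 values that had not passed. Of all tested probe sets, 154 passed for genotype in naive cells, with 3 without a trend, 5 from the 4 arrays alone, 18 with the Actb ratio, 57 with array weights, and 27 to 235 with an array left out. In activated cells it was 59, with 734 from the 4 arrays alone, 438 with array weights, 31 with centring, 6 with the Actb ratio and 8 to 103 with an array left out. Centring on the array median moved the higher share of calls for genotype to 72.7% in place of 55.8% in naive cells and to 64.5% in place of 52.5% in activated cells, and for activation in wild-type cells to 55.2% in place of 44.4%. It moved the median of all probe sets in naive cells to 0.10.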
